A study of Homo sapiens with 2 samples.

Results

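RASGRP2, RASD1, PREX1, CYFIP2 and SPRY1 encode regulators of the small GTPases Ras, Rap and Rac or of the actin machinery that Rac controls. These 5 genes, taken by symbol, are 5 of the 32738 genes counted in each of 2 single-cell messenger RNA libraries of Nalm-6, a human cell line of B-cell precursor acute lymphoblastic leukemia. In the ETV6-RUNX1 library the cells carried an inducible Tet-On construct for the leukemia fusion ETV6-RUNX1, and in the LUC control library a Tet-On construct for luciferase. Both cultures were given 500 ng/ml doxycycline for 24 h, and dead cells were then depleted with beads. There was 1 library per construct, so no difference below has a replicate check and none was tested. The 5 genes were picked with their values in this contrast known, so the ratios between libraries are descriptions.

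Small GTPases are switches that are active when bound to GTP. Exchange factors (GEFs) load them with GTP, and GTPase-activating proteins (GAPs) turn them off. RASGRP2, also called CalDAG-GEFI, is an exchange factor for Rap GTPases that responds to calcium and is known from platelets and leukocytes, where active Rap switches integrins to their adhesive state. RASD1 is a GTPase of the Ras family first described as induced by dexamethasone. PREX1 is an exchange factor for Rac that is activated by the lipid PIP3 and by G-protein beta-gamma subunits. CYFIP2 is a subunit of the WAVE complex, through which Rac starts branched actin growth by the Arp2/3 complex. SPRY1 is a Sprouty protein, a feedback inhibitor of signalling from receptor tyrosine kinases to Ras and ERK.

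The promoters of RASGRP2 and CYFIP2 are shown because the fusion holds the DNA-binding domain of RUNX1, RASGRP2 had the lowest ratio of the 5 genes, and CYFIP2 held the 1 match to a RUNX word. Each window runs from 250 bases before to 50 bases after a gene start of RefSeq (GRCh38.p14). All 5 genes matched the table, with 7 windows, since CYFIP2 and SPRY1 each had 2. Capitals mark matches to TGTGGT or TGCGGT (RUNX words) or CGGAAG (an ETS word) on either strand. The RASGRP2 window is chr11:64745299-64745598 on the minus strand, and the CYFIP2 window is chr5:157265873-157266172 on the plus strand.
RASGRP2: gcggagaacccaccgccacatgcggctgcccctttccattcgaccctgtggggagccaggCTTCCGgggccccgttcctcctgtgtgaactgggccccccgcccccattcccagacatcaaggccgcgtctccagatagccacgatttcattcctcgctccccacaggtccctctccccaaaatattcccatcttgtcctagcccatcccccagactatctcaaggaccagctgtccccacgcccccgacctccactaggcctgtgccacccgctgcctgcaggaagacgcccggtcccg
CYFIP2: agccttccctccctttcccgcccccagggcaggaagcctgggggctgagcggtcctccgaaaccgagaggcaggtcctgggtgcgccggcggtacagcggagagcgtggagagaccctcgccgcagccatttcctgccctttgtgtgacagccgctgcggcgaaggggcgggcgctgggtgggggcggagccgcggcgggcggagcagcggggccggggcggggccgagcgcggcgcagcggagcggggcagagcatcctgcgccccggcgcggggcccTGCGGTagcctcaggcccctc
In RASGRP2 the 1 match was CTTCCG, the reverse complement of the ETS word, at bases 61 to 66 of the window, and the RUNX words were not in these letters. In CYFIP2 the match was TGCGGT at bases 280 to 285, after the gene start. Among the other windows, PREX1 held the ETS word 2 times and the second SPRY1 window 1 time, while the RASD1 window, the second CYFIP2 window and the first SPRY1 window held none of the 3 words. Of 35116 RefSeq windows of this length, 13.1% held TGTGGT, 7.29% held TGCGGT and 19.5% held CGGAAG on either strand. The matches describe letters and no binding was measured, of the fusion or of any other protein. A match to the ETS word is not given as a site of the fusion.

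UMIs are unique molecular identifiers, 1 per captured transcript. A cell was used if it had UMIs from 1000 genes or more and a mitochondrial share of UMIs no higher than 10%. This left 2267 cells with 43941536 UMIs in the ETV6-RUNX1 library (median 19219 per cell) and 1870 cells with 42762188 UMIs in the LUC control library (median 22535.5). The libraries shared 16 barcodes, 7 of them among kept cells. Of the B-cell precursor markers 10 of 11 symbols were found and all 10 were expressed, with a summed level of 3298.8 CPM (UMIs scaled by the library total) with ETV6-RUNX1 and 4319.6 CPM in the control. IGLL1 made up 1126 and 1861 CPM of these sums. None of 7 T and NK markers found reached 10 CPM. Summed T and NK markers were at 4.71 and 6.27 CPM, nearly all of it NKG7, with CD3D and CD3E at 0 UMIs in both libraries. Myeloid markers summed to 13.3 and 12.1 CPM, mostly CST3, with S100A8 and S100A9 at 0. Erythroid and megakaryocyte markers summed to 0.0910 and 0.281 CPM and mature B and plasma markers to 7.40 and 4.93 CPM. The lower B-cell precursor sum moves with the 5 genes, and its part in their results was not tested.

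All 5 genes were lower in the ETV6-RUNX1 library, and RASGRP2 by the most. RASGRP2 (ENSG00000068831) had 1445 UMIs or 32.9 CPM with ETV6-RUNX1 (95% counting interval 31.2 to 34.6), against 3792 UMIs or 88.7 CPM (85.9 to 91.5) in the control. That is a log2 ratio of -1.43 (-1.52 to -1.34), or 2.70-fold lower, the third lowest among 5954 genes with at least 10 CPM in a library. RASD1 (ENSG00000108551) had 375 UMIs or 8.53 CPM (7.69 to 9.44) with ETV6-RUNX1, against 719 UMIs or 16.8 CPM (15.6 to 18.1) in the control, a log2 ratio of -0.98 (-1.16 to -0.80). These intervals cover counting error only. For genes with many UMIs they can be clear of 0 at small ratios too, as for RPS19, with a log2 ratio of 0.083 (0.076 to 0.089). How many of all measured genes have an interval clear of 0 was not counted.

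The Rac exchange factor, the WAVE subunit and the Ras inhibitor differed by less. PREX1 (ENSG00000124126) was at 6.87 CPM (6.12 to 7.69, 302 UMIs) with ETV6-RUNX1 and at 10.7 CPM (9.71 to 11.7, 456 UMIs) in the control, a log2 ratio of -0.63 (-0.85 to -0.42). CYFIP2 (ENSG00000055163) was at 26.4 CPM (24.9 to 28.0, 1162 UMIs) with ETV6-RUNX1 and at 39.8 CPM (37.9 to 41.7, 1701 UMIs) in the control, a log2 ratio of -0.59 (-0.70 to -0.48). Its exons overlap those of 4 genes on the other strand in GENCODE release 29, ADAM19 among them, and the sources used here do not say whether counting used strand. SPRY1 (ENSG00000164056) was at 9.76 CPM (8.86 to 10.7, 429 UMIs) with ETV6-RUNX1 and at 16.6 CPM (15.4 to 17.9, 711 UMIs) in the control, a log2 ratio of -0.77 (-0.94 to -0.59).

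A ratio of 1.5-fold was used as the size to count by. At that size 0.655% of the 5954 measured genes were lower and 0.185% higher with ETV6-RUNX1. These are 39 and 11 genes, and 32 and 17 genes under each of 3 other library scalings. All 5 genes were past it on the lower side, but they were picked from this contrast, so nothing is read from that count. RASD1, PREX1 and SPRY1 reached the 10 CPM floor through the control library alone. CYFIP2 was 1.504-fold lower and PREX1 1.552-fold lower, so both sit at the edge of that size. CYFIP2 fell short of it in 5 of 10 other settings (log2 ratio up to -0.51 in thinned cells) and PREX1 in 1 (-0.58 with cells weighted equally).

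Fewer cells carried a transcript of each gene in the ETV6-RUNX1 library. To compare cells at 1 depth, each was thinned at random to 8700 UMIs, which left out 224 and 84 shallower cells. RASGRP2 was then seen in 22.3% of 2043 ETV6-RUNX1 cells (exact 95% interval 20.5 to 24.2) and in 52.4% of 1786 control cells (50.01 to 54.7). Without thinning these shares were 37.8% and 78.9%. CYFIP2 was seen in 21.0% and 28.1% of thinned cells, RASD1 in 6.75% and 11.9%, SPRY1 in 6.90% and 11.3%, and PREX1 in 5.29% and 9.01%. Thinned to 5000 UMIs, all 5 genes were again in fewer ETV6-RUNX1 cells, but for PREX1 the intervals then overlapped, at 3.72% (2.97 to 4.59) of ETV6-RUNX1 cells and 4.50% (3.603 to 5.55) of control cells. No cell type that should lack these genes was found in the culture, so the part of free RNA in these shares could not be measured.

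**Figure D1:**
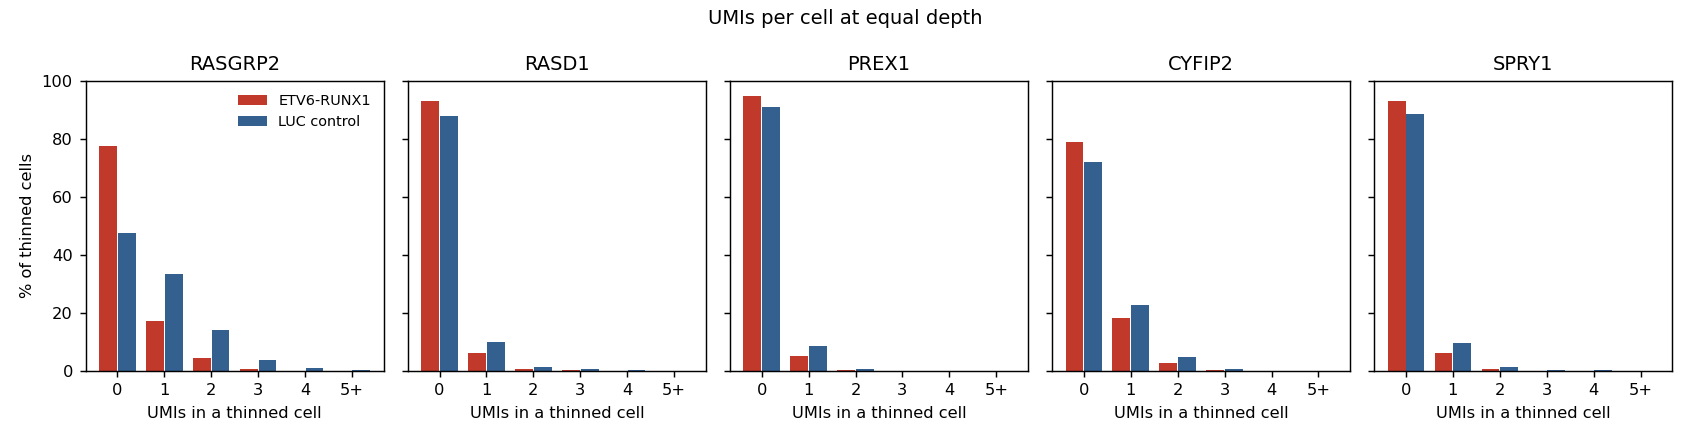
Bars give the percent of thinned cells (y axis) with 0 to 4 or 5 and more UMIs of each gene (x axis) in the ETV6-RUNX1 (red) and LUC control (blue) libraries. The bar at 0 is taller with ETV6-RUNX1 for each gene, and the gap is widest for RASGRP2.

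ETV6-RUNX1 cells with several RASGRP2 transcripts were fewer as well. In thinned ETV6-RUNX1 cells 351 cells had 1 UMI, 90 had 2, 14 had 3 and 1 had 4. In thinned control cells 594 had 1 UMI, 249 had 2, 69 had 3, 19 had 4 and 4 had 5 or more. Counts spread evenly over cells would put RASGRP2 in 24.6% of ETV6-RUNX1 cells and 54.2% of control cells at the same means, just above the shares seen. The variance between cells was 1.20 times the mean with ETV6-RUNX1 and 1.10 times in the control, where 1 is pure counting noise. Measured genes of similar mean UMIs had medians of 1.04 and 1.06.

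RASD1 and SPRY1 also varied between cells by more than most genes of similar mean UMIs. The variance of RASD1 was 1.20 times its mean with ETV6-RUNX1 and 1.40 times in the control, against medians of 1.02 in each library among such genes. For SPRY1 it was 1.16 and 1.26 times, against medians of 1.02 in each. PREX1 (1.05 and 1.02 times) and CYFIP2 (1.05 and 1.07 times) were close to counting noise.

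Each gene was then followed through the cell cycle. Cells were called G1, S or G2/M from published S and G2/M gene lists in thinned cells, and levels were taken from all UMIs of those cells. Calls gave 394 G1, 678 S and 971 G2/M cells with ETV6-RUNX1, and 297, 670 and 819 in the control. Of the cells, 18.4% and 18.6% lay within 0.05 of the score cut between G1 and cycling. The G1 share itself moved with the scoring, to 10.5% and 7.28% when all genes could serve as scoring controls, against 19.3% and 16.6% here.

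RASGRP2 was lower with ETV6-RUNX1 in every called phase. With ETV6-RUNX1 it was at 28.2 CPM (24.4 to 32.4) in G1 cells, 28.6 (25.8 to 31.6) in S cells and 37.2 (34.7 to 39.8) in G2/M cells. In the control it was at 82.0 CPM (74.8 to 89.8) in G1, 94.2 (89.3 to 99.2) in S and 87.1 (83.2 to 91.1) in G2/M. All 3 levels with ETV6-RUNX1 lie below all 3 control levels, and the G1 and S levels with ETV6-RUNX1 do not differ beyond counting error, nor do G1 and G2/M in the control. The log2 ratio between libraries was -1.54 (-1.79 to -1.30) in G1, -1.72 (-1.89 to -1.56) in S and -1.23 (-1.35 to -1.11) in G2/M.

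The order of S and G2/M for RASGRP2 was not the same in the libraries, by a narrow margin in the control. Contrasts between phases within a library, here and below, were not repeated under other phase scorings. With ETV6-RUNX1 the G2/M level was above the S level, a log2 ratio of 0.38 (0.20 to 0.56), whereas in the control it was slightly below, at -0.11 (-0.21 to -0.01). G2/M cells held more UMIs in all, with 22974.8 UMIs per cell with ETV6-RUNX1 and 26362.9 in the control, against 17667.4 and 19534.0 in G1. Per cell, RASGRP2 therefore came to 0.854 UMIs with ETV6-RUNX1 and 2.30 in the control in G2/M, and to 0.497 and 1.60 in G1.

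**Figure D2:**
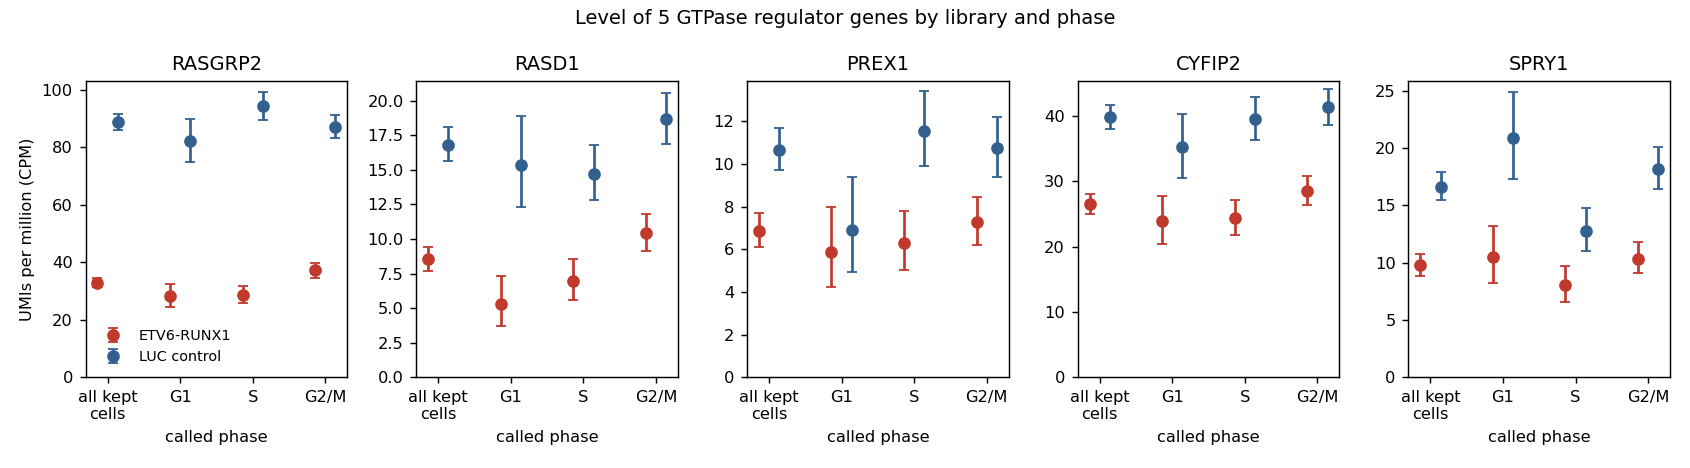
Points give the level of each gene in CPM (y axis, from 0, own scale per gene) in all kept cells and in cells called G1, S and G2/M (x axis), for the ETV6-RUNX1 (red) and LUC control (blue) libraries, with exact 95% counting intervals. Red lies below blue throughout, with overlapping intervals for PREX1 in G1.

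RASD1 was highest in G2/M in both libraries. Its levels with ETV6-RUNX1 were 5.32 CPM in G1, 6.97 in S and 10.4 in G2/M, against 15.3, 14.7 and 18.7 CPM in the control. G2/M stood above S by a log2 ratio of 0.58 (0.22 to 0.94) in ETV6-RUNX1 cells and 0.34 (0.10 to 0.59) in control cells. Against G1 it stood above by 0.97 (0.46 to 1.51) in ETV6-RUNX1 cells, while in control cells the interval included 0 (0.28, -0.05 to 0.63). The RASD1 log2 ratio between libraries was -1.53 (-2.12 to -0.96) in G1, -1.08 in S and -0.84 in G2/M. The G1 value, from 37 and 89 UMIs, was -0.95 (-2.18 to 0.24) when all genes served as scoring controls.

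SPRY1 ran differently, with its lowest level in S. It was at 10.5 CPM in G1, 8.03 in S and 10.4 in G2/M with ETV6-RUNX1, against 20.9, 12.8 and 18.2 CPM in the control. In the control the S level was below G1 by a log2 ratio of -0.71 (-1.04 to -0.37). With ETV6-RUNX1 this contrast was -0.38 (-0.83 to 0.07), with an interval that includes 0. Between libraries SPRY1 had log2 ratios of -0.99 in G1 cells, -0.67 in S cells and -0.81 in G2/M cells.

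Among the 5 genes, PREX1 and CYFIP2, which act on the Rac route, differed least between libraries in G1. PREX1 in G1 was at 5.89 CPM (41 UMIs) with ETV6-RUNX1 and at 6.89 CPM (40 UMIs) in the control, a log2 ratio of -0.23 (-0.89 to 0.44) that was not resolved at this depth and lay at 0.07 when all genes served as scoring controls. In S and G2/M its ratios were -0.88 (-1.27 to -0.49) and -0.57 (-0.86 to -0.27). PREX1 was higher in S than in G1 in the control, by a log2 ratio of 0.75 (0.24 to 1.28). CYFIP2 had 23.8, 24.3 and 28.5 CPM in G1, S and G2/M with ETV6-RUNX1, against 35.2, 39.5 and 41.3 CPM in the control, with log2 ratios from -0.70 in S to -0.54 in G2/M.

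By size, RASGRP2, RASD1 and SPRY1 were at least 1.5-fold lower with ETV6-RUNX1 in all 3 phases, and PREX1 and CYFIP2 in S. The counts were thus 3 of 5 in G1, where 2.33% of measured genes were that much lower, 5 of 5 in S (1.5% of measured genes) and 3 of 5 in G2/M (0.482%). PREX1 was below the 10 CPM floor in G1. Genes at least 1.5-fold higher were 1.16% of those measured in G1, 0.487% in S and 0.266% in G2/M. The choice of the genes used the same cells, so these counts stand as descriptions.

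Pairs of the 5 genes showed little correlation from cell to cell. Correlations of log-transformed thinned counts, centred within phase, had a median of 0.005 over the 10 pairs with ETV6-RUNX1 (2043 cells, -0.031 to 0.023) and of 0.003 in the control (1786 cells, -0.011 to 0.048). Counts this sparse give little room for a correlation, so values this low do not show that the genes vary apart. None of the 5 was seen in 50.7% of thinned ETV6-RUNX1 cells and 25.1% of thinned control cells, and 0 cells showed all 5.

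RASGRP2 had higher correlations with some other genes, in the ETV6-RUNX1 library. The 5 measured genes most like it, by the mean correlation over both libraries, were IGLL1, PRELID1, MZB1, FTH1 and PRDX1. IGLL1, part of the surrogate light chain of the pre-B cell receptor, had r = 0.225 with ETV6-RUNX1 and 0.033 in the control. For PRELID1, a mitochondrial lipid carrier, r was 0.174 and 0.026, and for MZB1, a chaperone of antibody assembly, 0.177 and 0.007. FTH1, the ferritin heavy chain, had 0.191 and -0.022, and PRDX1, a peroxiredoxin, 0.130 and 0.038. Over all 5953 other measured genes the median r was 0.003 with ETV6-RUNX1 and 0.002 in the control. At r above 0.1 there were 21 genes with ETV6-RUNX1 and 0 in the control. All cells of a library share its preparation, and the difference between libraries was not tested. These most alike genes were themselves lower with ETV6-RUNX1, with log2 ratios between libraries of -0.73 for IGLL1, -0.58 for PRELID1, -0.46 for MZB1, -0.33 for FTH1 and -0.49 for PRDX1. Of all 5954 measured genes 63.8% were below 0. Next by mean correlation came EIF1AY at 0.04 (-0.04 to 0.12) and CD79B at 0.03 (-0.002 to 0.05), which were not lower. The RASGRP2 correlation with IGLL1 was 0.174 in G1, 0.298 in S and 0.197 in G2/M with ETV6-RUNX1, and 0.033, 0.004 and 0.057 in the control.

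Levels by the IGLL1 count of the same cell, a grouping chosen after the data were seen, give this in UMIs. IGLL1 had the highest mean correlation with RASGRP2 in these same cells. A climb of RASGRP2 with it in the ETV6-RUNX1 library thus restates that correlation and is no separate support. With ETV6-RUNX1, thinned cells with 0 IGLL1 UMIs had a mean of 0.115 RASGRP2 UMIs (208 cells), cells with 1 to 4 had 0.147 (605 cells), with 5 to 9 had 0.270, with 10 to 19 had 0.404 and with 20 or more had 0.483 (315 cells). In the control the means were 0.533 (15 cells), 0.719 (146 cells), 0.743, 0.803 and 0.799 (543 cells). RASGRP2 thus climbed with IGLL1 in the ETV6-RUNX1 library, by a log2 ratio of 1.80 (1.43 to 2.16) between cells with 20 or more and cells with 0 to 4 IGLL1 UMIs, against 0.19 (-0.11 to 0.50) in the control.

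**Figure D3:**
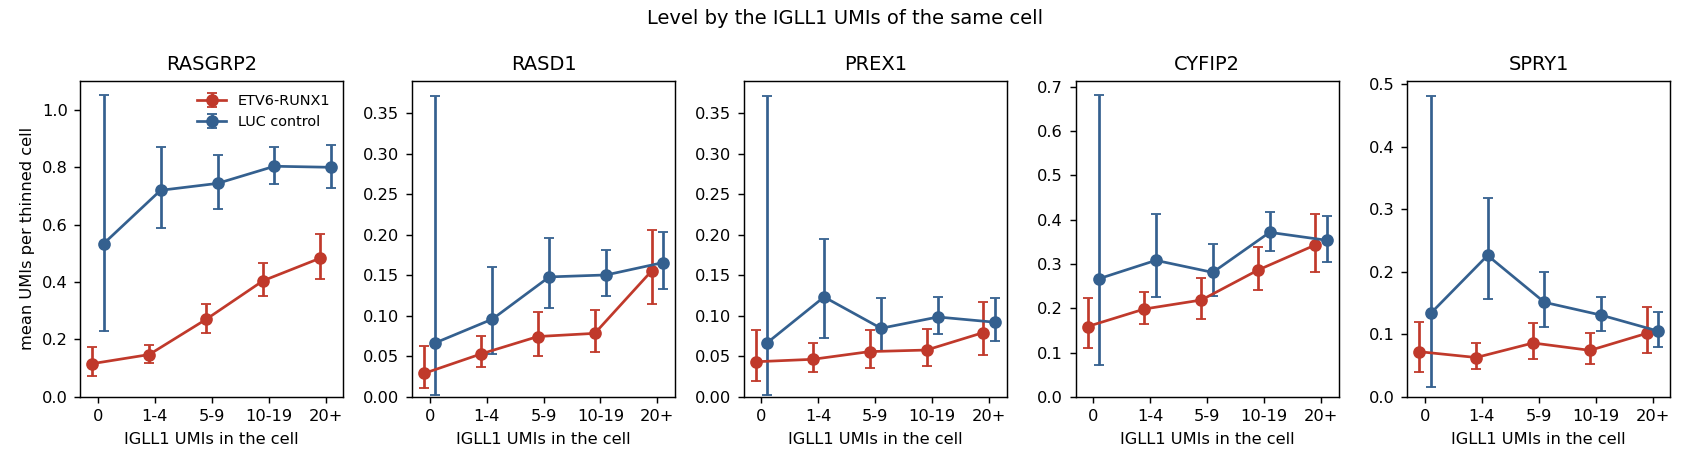
Points give the mean UMIs per thinned cell of each gene (y axis, from 0, own scale per gene) in cells grouped by their own IGLL1 UMIs (x axis), for the ETV6-RUNX1 (red) and LUC control (blue) libraries, with exact 95% counting intervals. RASGRP2 stays lower with ETV6-RUNX1 in the group with 20 or more IGLL1 UMIs, at 0.483 against 0.799, where the other 4 genes overlap.

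Among cells with 20 or more IGLL1 UMIs, RASGRP2 was still lower with ETV6-RUNX1, by a log2 ratio of -0.73 (-1.004 to -0.46). The other 4 genes had ratios near 0 there, with wide intervals. They were -0.09 (-0.62 to 0.43) for RASD1, -0.21 (-0.97 to 0.51) for PREX1, -0.04 (-0.40 to 0.30) for CYFIP2 and -0.05 (-0.72 to 0.60) for SPRY1. Among cells with 1 to 4 IGLL1 UMIs the ratios were -2.29 (-2.71 to -1.87) for RASGRP2, -1.85 (-2.56 to -1.13) for SPRY1, -1.41 (-2.32 to -0.47) for PREX1, -0.86 (-1.81 to 0.16) for RASD1 and -0.64 (-1.14 to -0.11) for CYFIP2.

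The IGLL1 groups also differ in cell cycle. Of cells with 20 or more IGLL1 UMIs, 77.5% with ETV6-RUNX1 and 62.2% in the control were called G2/M, against 35.0% and 26.7% of cells with 1 to 4. The median share of mitochondrial UMIs lay between 4.49% and 4.55% in all 5 groups with ETV6-RUNX1, while in the control it was 4.80% at 0 IGLL1 UMIs, 4.59% at 1 to 4 and 4.29% at 20 or more. Its part in the pattern was not tested. Within G2/M cells the RASGRP2 log2 ratio was -1.63 (-2.39 to -0.84) at 0 to 4 IGLL1 UMIs, -1.17 (-1.46 to -0.89) at 5 to 19 and -0.85 (-1.19 to -0.53) at 20 or more. Within S cells it was -3.10 (-3.78 to -2.42), -1.28 (-1.61 to -0.96) and -0.47 (-1.06 to 0.08). Within G1 cells it was -2.15 (-2.83 to -1.48), -1.05 (-1.52 to -0.59) and -0.05 (-1.49 to 1.19), the last from 11 and 41 cells. At 20 or more IGLL1 UMIs the intervals in S and in G1 include 0, and the part of the cell cycle in the pattern was not tested further.

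SPRY1 went with IGLL1 in the other direction in the control. There it had a mean of 0.217 UMIs in 161 cells with 0 to 4 IGLL1 UMIs and of 0.105 in cells with 20 or more, a log2 ratio of -1.05 (-1.68 to -0.40). With ETV6-RUNX1 the same contrast was 0.64 (-0.04 to 1.30). RASD1 was higher in cells with 20 or more IGLL1 UMIs in both libraries, by 1.73 (1.09 to 2.39) in ETV6-RUNX1 cells and 0.83 (0.03 to 1.73) in control cells. The control cells with 0 to 4 IGLL1 UMIs held 15 RASD1 UMIs. Within control G2/M cells the RASD1 means were 0.178 at 0 to 4 IGLL1 UMIs and 0.198 at 20 or more. Within control S cells they were 0.064 and 0.134, and within control G1 cells 0.058 and 0.024. The part of the cell cycle in this was not tested. CYFIP2 was higher in cells with 20 or more IGLL1 UMIs with ETV6-RUNX1, by 0.87 (0.50 to 1.23), against 0.22 (-0.24 to 0.70) in the control. For PREX1 the contrast was 0.80 (0.01 to 1.57) in ETV6-RUNX1 cells and -0.36 (-1.15 to 0.49) in control cells.

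Other genes of the same pathways were taken from lists. Apart from the 5 genes, 12 lists of Ras, Rap and Rac pathway genes held 109 measured genes. Of these, 2 were at least 1.5-fold lower with ETV6-RUNX1, ARHGAP4 and ITGA4, and 0 were that much higher, beside 39 (0.655%) lower and 11 (0.185%) higher of all 5954 measured genes. Their median log2 ratio was -0.03, with 56.0% below 0, against a median of -0.04 and 63.8% below 0 for all 5954 measured genes. Other library scalings move every log2 ratio up by 0.04 to 0.05, which puts the pathway median at 0.01 to 0.02 and ITGA4 just short of 1.5-fold. In thinned cells ITGA4 was at -0.41. With the phases of the libraries matched, 4 list genes were at least 1.5-fold lower, IQGAP2 and RAC2 being the others, and with cells weighted equally 3, IQGAP2 being the other.

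**Figure D4:**
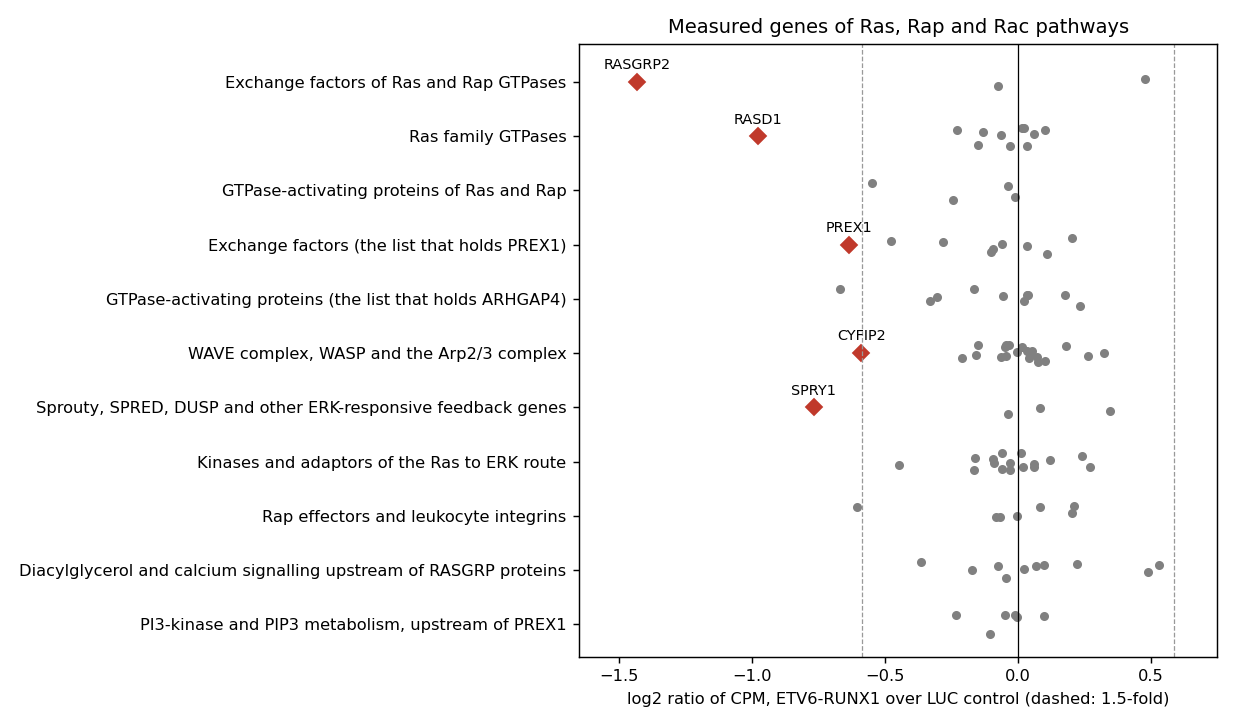
Each point is a measured gene of 11 of the 12 pathway lists (y axis), placed by its log2 ratio of CPM, ETV6-RUNX1 over LUC control (x axis). Red diamonds are the 5 named genes, grey points the other list members, and dashed lines mark 1.5-fold. Apart from ARHGAP4 and ITGA4, grey points lie within those lines.

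The other genes of the RASGRP family were nearly absent. RASGRP1 had 1 UMI in each library, RASGRP3 had 14 with ETV6-RUNX1 and 17 in the control, and RASGRP4 had 2 and 1. The list had 3 measured genes of 18. Of the other 2, RAPGEF1, an exchange factor for Rap, was at 10.4 CPM with ETV6-RUNX1 against 7.51 CPM in the control (0.48, 0.27 to 0.69), and RALGDS, which acts on Ral, was at -0.07. Their GTPases were near 0, with 0 of 10 other measured Ras family genes past 1.5-fold; RALB was at -0.23 (-0.43 to -0.03) and RAP1A, a substrate of RASGRP2, at -0.15 (-0.25 to -0.04). Of 4 measured genes in the list of Ras and Rap GAPs, IQGAP2, a scaffold related to GAPs, was at -0.55 (-0.76 to -0.34) and RASA4, which has near-identical copies that can share its reads, at -0.24. Below the floor in that list, SIPA1 was at -0.58 (-0.88 to -0.28), RASAL3 at -0.77 (-1.24 to -0.31) and RAP1GAP2 at -0.66 (-1.17 to -0.16). RASA2 was at -0.34 (-0.57 to -0.11), while RASAL1 was at 0.40 (0.13 to 0.66). The intervals of the other genes below the floor there include 0. In the list of diacylglycerol and calcium signalling 0 of 10 genes were past 1.5-fold. PRKCZ, an atypical kinase C that does not respond to diacylglycerol, was at 0.53 (0.36 to 0.71) and the calcium channel gene ORAI2 at 0.49 (0.40 to 0.58, and past 1.5-fold in thinned cells). Of 7 measured Rap effector and integrin genes, ITGA4, the alpha chain of VLA-4, was at 10.1 CPM with ETV6-RUNX1 against 15.4 CPM in the control (-0.61, -0.78 to -0.43), and its partner ITGB1 at 0.21 (0.06 to 0.36). Below the floor in that list, ITGB2 was at 5.12 CPM with ETV6-RUNX1 against 9.45 CPM in the control (-0.88, -1.13 to -0.64). RASSF5, also below the floor, was at -0.64 (-0.92 to -0.37), while ITGA5 was at 0.47 (0.16 to 0.78).

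On the Rac side, RAC2, the Rac of blood cells, was at 37.1 CPM with ETV6-RUNX1 against 52.5 CPM in the control (-0.50, -0.59 to -0.41). The more abundant RAC1 was at 254 CPM with ETV6-RUNX1 against 238 CPM in the control (0.10, 0.06 to 0.13). RAC3 was at 12.5 CPM with ETV6-RUNX1 against 11.1 CPM in the control (0.17, -0.01 to 0.35). Of 8 exchange factor genes other than PREX1, 0 were past 1.5-fold; VAV1, an exchange factor of lymphocytes, was at -0.48 (-0.67 to -0.29) and ARHGEF1 at -0.28. ARHGAP4, a GAP of blood cells, was at 12.6 CPM with ETV6-RUNX1 against 20.1 CPM in the control (-0.67, -0.83 to -0.51), the 1 of 10 GAP genes past 1.5-fold, and HMHA1 was at -0.33. In the actin branch, of 20 other measured genes of the WAVE and Arp2/3 complexes 9 were below 0 and 0 past 1.5-fold, with a median of 0.02; WASF2, the core WAVE protein, was at 113 CPM with ETV6-RUNX1 against 90.5 CPM in the control (0.32, 0.26 to 0.39) and ABI2 at 0.27. Below the floor, CYFIP1, the paralogue of CYFIP2, was at 5.58 CPM with ETV6-RUNX1 and 6.95 CPM in the control (-0.32, -0.57 to -0.07), and ABI3, a further WAVE subunit, at 2.64 and 4.09 CPM (-0.63, -0.98 to -0.29). PI3-kinase and PIP3 genes, which act above PREX1, had 0 of 7 past 1.5-fold, with PIK3R1 at -0.23.

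Of 23 listed feedback genes that, like SPRY1, respond to ERK signalling, 4 were measured. Of the 3 other than SPRY1, ETV5, an ETS factor, was at 0.35 (0.18 to 0.51), FOS at 0.08 (0.03 to 0.13) and DUSP6, a phosphatase of ERK, at -0.04 (-0.15 to 0.08). SPRY2, a relative of SPRY1 that did not reach 10 CPM, was at 7.31 CPM with ETV6-RUNX1 and 7.97 CPM in the control (-0.13, -0.35 to 0.10). Of 16 kinases and adaptors of the route to ERK 0 were past 1.5-fold; PPP1CA, a phosphatase subunit that works with SHOC2 on RAF, was at -0.45 (-0.49 to -0.40) and the adaptor GAB1 at 0.27.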

How the data were processed

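Messenger RNA was measured in single cells by 10X droplet libraries. The authors deposited UMI counts, not normalized, for each gene in each barcode. Per the submitters' processing notes the tool was Cell Ranger 3.0.2 and the build hg19. RefSeq promoter windows on GRCh38.p14 and GENCODE release 29 were used for sequences and gene overlaps only. The 5 genes, the lists and the rule for named genes (the 5, up to 2 measured genes per list with the largest absolute log2 ratio, and the 5 genes most correlated with RASGRP2) were chosen with earlier results of these data known. The IGLL1 groups were chosen after the data were seen, and the other RASGRP genes, DUSP6, SPRY2, CYFIP1, ABI3, ITGB2, RASSF5 and ITGA5 were added after their values were seen. Results that this rule would name for a gene and a gene family are not reported here.

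UMIs of kept cells were summed per library and scaled to CPM. Ratios carry the exact 95% interval for a pair of Poisson counts, shares the exact Clopper-Pearson interval. Both cover counting error only, and leave out spread between cells, cultures and preparations. With 1 library per group no test was made. Thinning depth was the 10th percentile of UMIs in the shallower library, rounded down to 8700. Phases were scored with scanpy 1.11.5 (scores above 0, genes seen in at least 3 cells). Doublets were left in; Scrublet called 14 and 16 cells, and leaving them out was an alternative. Scaling factors for alternatives came from edgeR 4.0.16 and DESeq2 1.42.0. The ratio and correlation computations were tested on simulated data.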

Additional observations from a re-analysis of the deposited data

How the results depend on the processing

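The log2 ratios of the 5 genes were computed under 10 alternatives, 9 of them planned; leaving out barcodes found in both libraries, and scoring phases with all genes as controls, were added after the data were seen. All ratios stayed below 0 and within the counting interval of the reported value. They ran from -1.49 to -1.39 for RASGRP2, -1.10 to -0.93 for RASD1, -0.78 to -0.58 for PREX1, -0.61 to -0.51 for CYFIP2 and -0.84 to -0.68 for SPRY1. The ratio of 1.5-fold was kept in 10 of 10 alternatives for RASGRP2, RASD1 and SPRY1, in 9 for PREX1 and in 5 for CYFIP2.

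Genes at least 1.5-fold lower numbered 39. With the floor moved to 1 CPM they numbered 232, with it at 50 CPM 10, with a ratio of 2-fold 5 and with a ratio of 5 to 4 197. Genes higher numbered 11, and 139, 1, 0 and 98 under the same settings, by construction. With TMM, median-of-ratios or ribosome-free totals, which move every log2 ratio up by 0.04 to 0.05, they numbered 17. In thinned cells they numbered 23, and the cause of that was not tested. The correlation of RASGRP2 with IGLL1 with ETV6-RUNX1 was 0.318 in unthinned cells, where depth varies, against 0.225. For the 10 pairs of the 5 genes the median in unthinned cells was 0.023 in each library. The highest pair was then at 0.073 with ETV6-RUNX1 and 0.052 in the control. No paired analysis was possible because each group has 1 library. Depth limits PREX1 and RASD1 most, at 41 and 37 UMIs in G1 cells with ETV6-RUNX1.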
